A study of Mus musculus with 4 samples.

Results

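The genotype by LPS interaction asks whether loss of Hnrnpul1 changed how a gene responded to lipopolysaccharide. For each gene it is the log2 ratio of LPS-treated to untreated cells in the knockout minus the same log2 ratio in wild type, so a positive value means a larger increase, or a smaller decrease, in the knockout. It was taken for every gene with at least 10 reads in each of the 4 libraries, which held for 11439 of 54532 genes (10113 of them protein-coding). The 4 libraries were poly(A) RNA-seq of RAW 264.7, a mouse macrophage-like line: wild type without LPS (WT), wild type with LPS (WT_LPS), Hnrnpul1-/- without LPS (KO) and Hnrnpul1-/- with LPS (KO_LPS). LPS was given at 100 ng/ml for 10 h, and each group was 1 library. The labels name no clone, guide or parental control for the knockout, so differences between genotypes and differences between independently kept cultures cannot be told apart. No interaction was tested, since 4 single libraries leave no spread to test against, and every interval below covers counting error only.

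LPS is sensed by TLR4 with its partners Cd14 and Ly96. One branch, through MyD88, activates NF-kB and MAP kinases and switches on cytokine and chemokine genes within hours. Another branch, through TRIF, activates IRF3 and interferon beta, whose receptor then drives the many genes of the type I interferon response. The Hnrnpul1 protein is a relative of hnRNP U that binds RNA, with reported roles in RNA processing and in the handling of DNA breaks.

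Total counts were between 17045432 and 17909549 per library. Hnrnpul1 itself had 5086 reads in WT, 447 in KO, 3114 in WT_LPS and 350 in KO_LPS. Its level in the knockout was 0.0862 times the wild-type level without LPS and 0.107 times with LPS, so the genotype labels held in both pairs. Its own interaction was 0.31 (95% counting interval 0.10 to 0.53). All 10 macrophage markers, such as Adgre1, Csf1r and Cd68, passed the read minimum, with summed levels of 4261 CPM (counts scaled to library size, here with TMM factors) in WT, 3813 in KO, 9929 in WT_LPS and 7128 in KO_LPS. Markers of other cell types were low or at 0. Summed reads per library were 4 to 62 over 8 B cell markers (3 of them at 0 in all libraries), 54 to 228 over 10 T and NK cell markers (6 at 0), 60 to 171 over 8 dendritic cell markers, 0 to 16 over 8 neutrophil markers and 0 to 4 over 10 fibroblast and epithelial markers. The 8 osteoclast markers, several of which macrophages share, summed to 2023 to 3188 reads.

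Most genes had an LPS response of similar size in both genotypes. The median interaction was -0.01, and the middle 95% of genes lay between -0.88 and 0.77. The whole counting interval lay within 2-fold for 9448 of 11439 genes (82.6%). A gene was called when its interaction was at least 2-fold (1 on the log2 scale) and its counting interval excluded 0. By that rule 110 genes were higher in the knockout (0.962% of all members) and 172 were lower (1.5%), 282 in all (2.47%). At the edge of the rule, Hexim2 at 1.001 and Gm11703 at -1.001 were just inside, and Wdr19 at 0.998 was just outside. A further 1709 uncalled genes (14.9%) had intervals that reached past 2-fold, so counting error alone does not exclude a difference of that size for them.

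**Figure D1:**
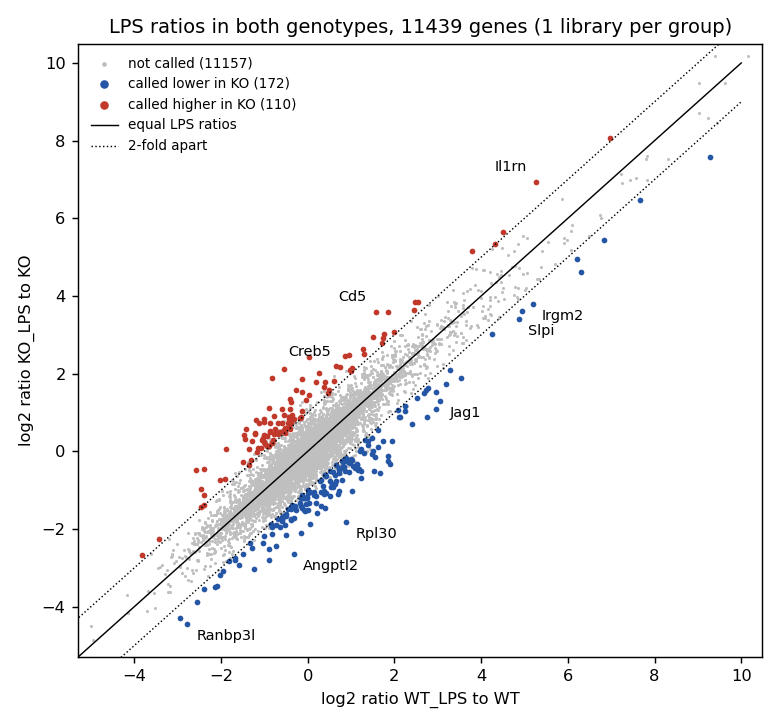
Each point is 1 of 11439 genes; the horizontal axis is the log2 ratio of WT_LPS to WT and the vertical axis the log2 ratio of KO_LPS to KO. The solid line marks equal responses and the dotted lines a 2-fold difference; the 110 genes called higher (red) and 172 called lower (blue) are spread along the whole range of LPS responses.

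The same call rule applied to each pair of libraries gives the scale of the responses being compared. In wild type, 1130 members were higher with LPS (9.88%) and 1047 lower (9.15%). In the knockout, 1160 were higher (10.1%) and 1248 lower (10.9%). Far fewer genes passed it between genotypes: without LPS 101 were higher in the knockout (0.883%) and 81 lower (0.708%), and with LPS 114 were higher (0.997%) and 164 lower (1.43%). These pairs share libraries with each other and with the interaction, so they show which library carries a value and add no independent evidence.

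Responses to LPS called in both genotypes were compared by direction. Among the 943 genes called higher with LPS in both genotypes, the response was larger in the knockout in 474 (50.3%), and the median interaction was 0.00. Of these, 19 were called as more strongly increased in the knockout and 22 as less strongly increased, 4.35% in all beside 2.47% of all members. Among the 878 genes called lower with LPS in both, the response was more negative in the knockout in 469 (53.4%). In this set 18 were called as more strongly decreased and 5 as less strongly decreased, 2.62% in all beside 2.47% of all members. Calls over all members also leaned to the lower side, with 1.5% lower and 0.962% higher.

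Many called genes had an LPS response that passed the rule in 1 genotype, as the interaction is the gap between those same ratios. A decrease called only in the knockout held 63 of the 172 lower interactions, and an increase called only in wild type held 33. An increase called only in the knockout held 25 of the 110 higher interactions, and a decrease called only in wild type another 25. The remaining calls included 36 higher and 35 lower genes whose LPS ratio passed the rule in neither genotype. Seen from the genotype side, 76 of the 172 lower interactions had no called genotype difference in either pair. Another 62 were called lower in the knockout with LPS but not without it, while 31 were called higher in the knockout without LPS but not with it. Of the 110 higher interactions 52 had no called genotype difference in either pair. Another 32 were called higher in the knockout with LPS only and 23 lower without LPS only.

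The spread of the interaction was wider than counting error, and more so for well-counted genes. Among the 977 genes with a counting standard error of at most 0.05, whose median lowest read number was 4502, the robust SD across genes was 0.133 against a median counting error of 0.039, a ratio of 3.37. Among the 951 genes with a counting error over 0.5 it was 0.778 against 0.619, a ratio of 1.26. The share of genes called went the other way, from 0.102% in the best counted set to 11.4% in the least counted set. Of the 282 calls, 26 had a counting interval that lay wholly beyond 2-fold (6 higher and 20 lower).

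**Figure D2:**
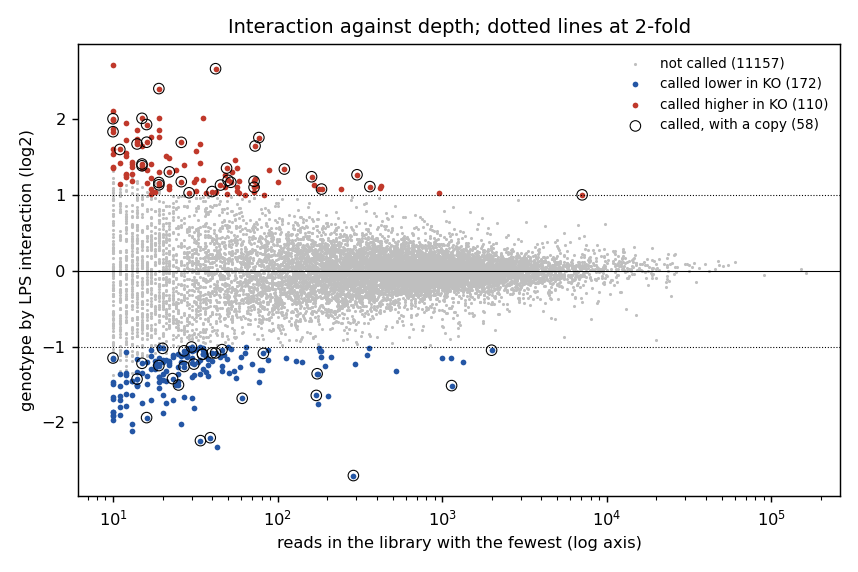
The interaction (log2, vertical axis) of each gene is plotted against the reads in its least covered library (log axis). Red and blue points are called. Black rings mark called genes with a copy, meaning another gene that holds at least 25% of their transcripts' 31-base words. Calls thin out to the right: 108 of them lie among the 951 genes with a counting error over 0.5 and 1 among the 977 genes with the smallest error.

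Some of the most extreme values belonged to genes with near-identical copies elsewhere in the genome, where reads can be assigned to either copy. A copy was taken as another gene holding at least 25% of the 31-base words of the gene's transcripts. Members with a copy were called in 4.65% of cases and those without in 2.20%, and their median counting errors were 0.222 and 0.117. The lowest interaction of all was that of Rpl30, a protein of the large ribosomal subunit, with 504 reads in WT, 1219 in KO, 757 in WT_LPS and 289 in KO_LPS (-2.70, interval -2.95 to -2.46). Its processed pseudogene Gm12191 had 5632, 5402, 5021 and 5672 reads, more than the parent gene in every library. Rpl30 lies at chr15:34440505-34443640 and Gm12191 at chr11:49678710-49679057 (GRCm38, minus strand for both), and over the 345 coding bases they differ at 1 base, G96A, counted from the first base of the start codon. The first 120 coding bases of Rpl30 and the matching bases of Gm12191 are shown to let that similarity be seen, with the differing base in capitals (GENCODE M21):
Rpl30: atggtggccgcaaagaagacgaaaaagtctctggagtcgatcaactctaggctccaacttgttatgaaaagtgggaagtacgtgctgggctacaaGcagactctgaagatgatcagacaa
Gm12191: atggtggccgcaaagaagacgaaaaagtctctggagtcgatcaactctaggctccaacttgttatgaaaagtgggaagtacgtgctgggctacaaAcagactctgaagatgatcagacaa

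The pair Rps27 and Rps27rt showed the same feature more completely. Rps27rt (chr9:114982366-114982739) is an intronless copy of Rps27 (chr3:90212522-90213651), a protein of the small ribosomal subunit, and their 252 coding bases are identical, so no read from within them can tell the genes apart. The first 120 bases, common to both, are given here in lower case because nothing differs:
Rps27 and Rps27rt: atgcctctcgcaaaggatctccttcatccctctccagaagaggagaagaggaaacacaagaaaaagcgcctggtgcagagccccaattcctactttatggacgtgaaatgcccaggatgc
Rps27rt had 1142 reads in WT, 1920 in KO, 2636 in WT_LPS and 1594 in KO_LPS, an interaction of -1.52. Rps27 had 8072, 8178, 5482 and 8043 reads and an interaction of 0.49, the opposite sign. Summed with its copies, Rps27rt stood at 0.08 and Rpl30 at -0.11.

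Of the 58 called genes with a copy, 3 were still called after their reads were summed with those of their copies: Rab43, Gm5483 and 1700047I17Rik2, the last with the highest interaction among protein-coding genes of at least 30 reads per library (2.67 alone, 2.47 summed). By construction such a sum follows the more abundant copy, so it does not give the response of the scarcer one. The high-mobility group protein gene Hmgn2 went from -1.65 to 0.10, the complex I subunit gene Ndufa12 from 1.27 to 0.28 and the survival gene Bcl2a1b from 1.18 to 0.17. Rps27a, which encodes a ubiquitin fused to a ribosomal protein, hardly moved (1.004 alone, 0.98 summed) but was no longer called with total-count scaling (0.990), with 11719 reads in WT, 10913 in KO, 7097 in WT_LPS and 13630 in KO_LPS. The other 224 calls (78 higher and 146 lower) had no copy by this measure, and the genes described from here on are among them unless stated.

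**Figure D3:**
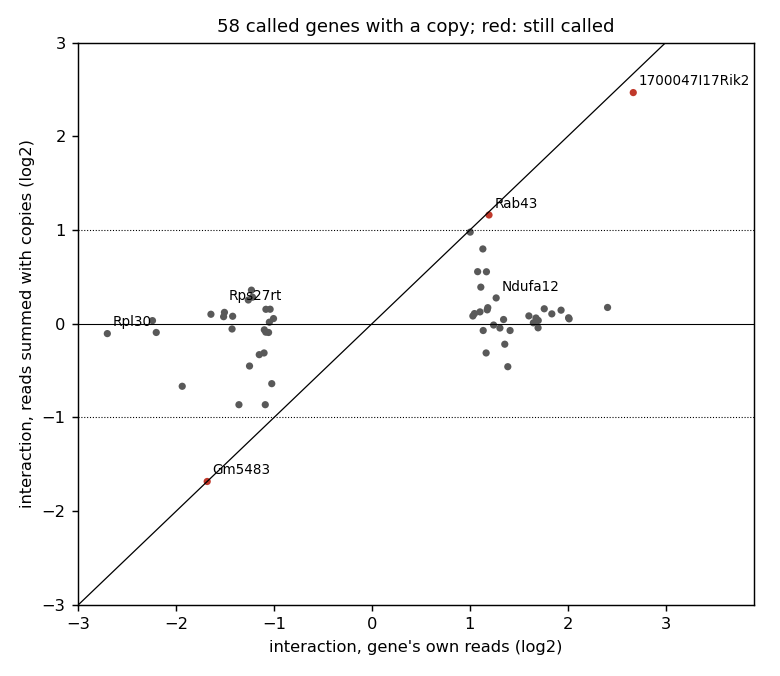
For the 58 called genes with a copy, the interaction from the gene's own reads (horizontal axis, log2) is set against that from reads summed with its copies (vertical axis, log2). Most points lie between the dotted lines at 2-fold on the vertical axis; 1700047I17Rik2, Rab43 and Gm5483 (red) lie beyond them.

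Among protein-coding genes with at least 30 reads in every library and no copy, the highest interaction was that of Cd5, a scavenger-receptor-family surface protein best known from T cells and a subset of B cells. Cd5 (chr19:10718143-10738974) had 35 reads in WT, 127 in KO, 84 in WT_LPS and 1276 in KO_LPS. It increased 2.97-fold with LPS in wild type and 12.1-fold in the knockout, an interaction of 2.03 (1.40 to 2.65). It was higher in the knockout at both conditions, 3.56-fold without LPS and 14.5-fold with it. The T and NK cell markers summed to 14.7 CPM in WT_LPS and 14.2 CPM in KO_LPS, nearly all of it Lck (224 and 225 reads). The B cell markers summed to 4.04 and 3.23 CPM, with Pax5 at 61 and 29 reads, Cd79b at 0 and 22, and Ms4a1 at 0 in all libraries. Their part in the Cd5 values was not tested.

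Il1rn, which encodes the secreted antagonist of the interleukin-1 receptor, had the next highest value by the same limits. It had 37 reads in WT, 34 in KO, 1145 in WT_LPS and 3441 in KO_LPS, so the genotypes differed with LPS and not before it. The increase was 38.3-fold in wild type and 122-fold in the knockout (1.67, 0.99 to 2.35). Creb5, a bZIP transcription factor of the CREB/ATF group, had 34, 50, 46 and 187 reads in the same order (1.43, 0.64 to 2.21), and only the KO_LPS library stood apart. Gpr35, a receptor for tryptophan metabolites and related ligands, had 53, 32, 49 and 91 reads (1.58, 0.77 to 2.39).

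In other genes the untreated knockout carried the difference. Dock4, an activator of the small GTPases Rac and Rap, had 123 reads in WT and 48 in KO but 335 in WT_LPS and 324 in KO_LPS (1.27, 0.740 to 1.798). Its level was thus 0.383 times wild type before LPS and 0.922 times after it. Pecam1, an adhesion molecule of leukocytes and endothelium, had 158, 53, 95 and 81 reads and showed the same arrangement (1.31, 0.69 to 1.93). Nr4a2, an orphan nuclear receptor induced early in activation, had 108, 55, 60 and 87 reads, lower in the knockout without LPS and slightly higher with it (1.47, 0.80 to 2.14).

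Genes with fewer reads after LPS in wild type, and less of that in the knockout, were also among the highest 12. Napepld, an enzyme that makes N-acylethanolamine lipids, had 210 reads in WT, 279 in KO, 89 in WT_LPS and 307 in KO_LPS, with an LPS ratio of 0.524 in wild type and 1.32 in the knockout (1.34, 0.91 to 1.76). Tsku, a secreted leucine-rich repeat protein, stood at 1.36 (0.73 to 1.99). Fut7, the fucosyltransferase that builds selectin ligands, stood at 1.22 (0.50 to 1.93), with a decrease to 0.357 times in wild type and 0.828 times in the knockout.

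**Figure D4:**
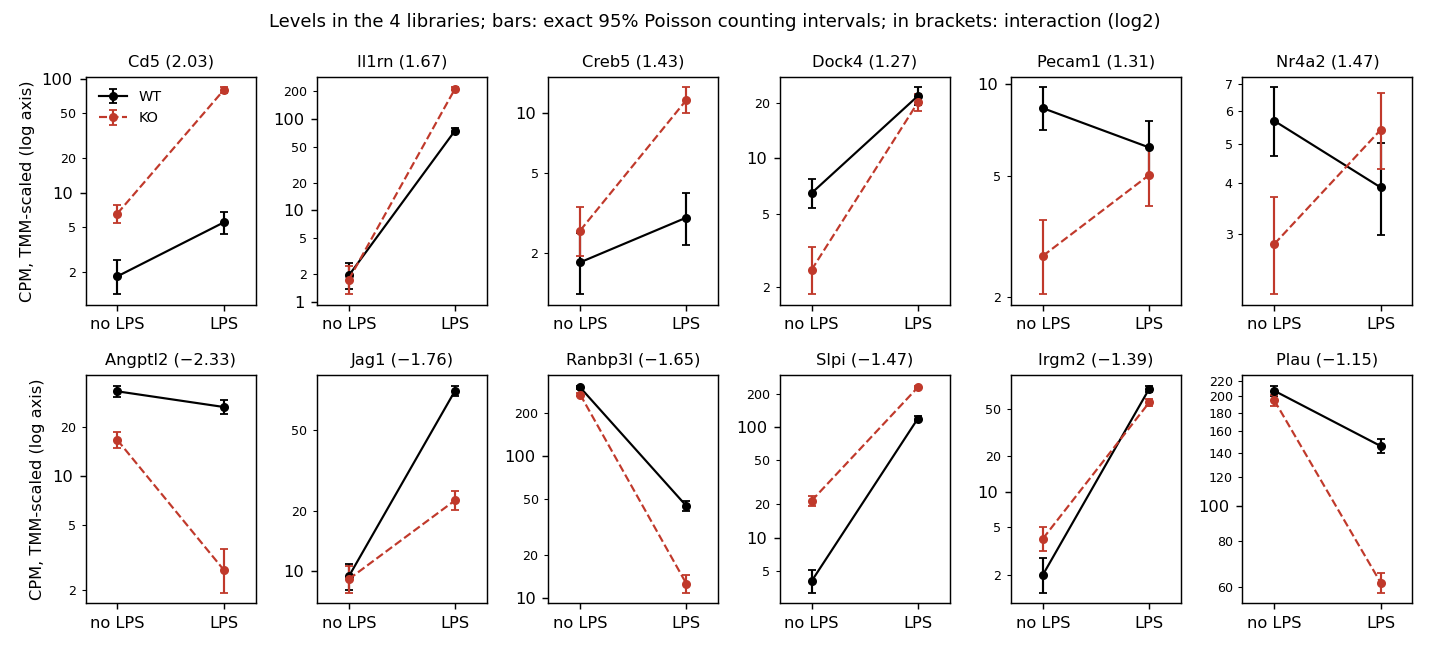
Levels of 12 genes in the 4 libraries (CPM, TMM-scaled, log axis), wild type in black and knockout in red, without and with LPS, with exact 95% Poisson counting intervals; the number beside each name is its interaction (log2). Cd5, Il1rn and Creb5 separate with LPS upward and Angptl2, Jag1, Ranbp3l and Plau downward, whereas Dock4, Pecam1, Slpi and Irgm2 differ most without LPS.

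By the same limits the lowest interaction was that of Angptl2, a secreted angiopoietin-like protein with roles in inflammation. Angptl2 (chr2:33216069-33247717) had 633 reads in WT, 324 in KO, 410 in WT_LPS and 43 in KO_LPS. With LPS its level went to 0.801 times in wild type and to 0.16 times in the knockout, an interaction of -2.33 (-2.82 to -1.83). The knockout stood at 0.1 times the wild-type level with LPS and at 0.502 times without it.

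Jag1, a membrane ligand of Notch receptors, was an LPS-induced gene whose induction was smaller in the knockout. It had 179 reads in WT and 177 in KO, then 1207 in WT_LPS and 362 in KO_LPS, an 8.34-fold against a 2.46-fold increase (-1.76, -2.11 to -1.42). Arrdc4, an arrestin-domain protein linked to glucose uptake, had a similar course with 56, 57, 352 and 138 reads (-1.42, -2.02 to -0.81). In both genes the untreated libraries were equal within counting error and the LPS libraries were apart. Padi2, which converts arginine in proteins to citrulline, was called higher with LPS in wild type only, with 30, 62, 71 and 47 reads (-1.68, -2.51 to -0.86).

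Several genes that LPS lowered in both genotypes were lowered further in the knockout. Ranbp3l, a Ran-binding protein reported to export Smads from the nucleus, had 5797 reads in WT, 5267 in KO, 684 in WT_LPS and 203 in KO_LPS. Its level with LPS was 0.146 times the untreated level in wild type and 0.0464 times in the knockout (-1.65, -1.89 to -1.42). Cldn11, a tight junction protein, had 1836, 1196, 194 and 51 reads (-1.35, -1.81 to -0.89). Plau, the urokinase plasminogen activator, had 3924, 3766, 2240 and 994 reads (-1.15, -1.28 to -1.03). Klf10, a zinc finger factor induced by TGF-beta, had 335, 283, 132 and 46 reads (-1.32, -1.85 to -0.78), and Egr3, an early growth response factor, had 206, 160, 39 and 12 (-1.38, -2.36 to -0.40). In these genes the KO_LPS library was the lowest of the 4.

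In Slpi and Irgm2 the larger gap between genotypes was without LPS. Slpi, a secreted protease inhibitor made by LPS-treated macrophages, had 77 reads in WT, 418 in KO, 1828 in WT_LPS and 3675 in KO_LPS. The knockout was above wild type 5.32-fold without LPS and 1.92-fold with it, and the interaction was -1.47 (-1.83 to -1.11). Irgm2, an interferon-inducible GTPase that acts on pathogen-containing vacuoles, had 38, 78, 1124 and 905 reads (-1.39, -1.96 to -0.82), 2.01 times wild type without LPS and 0.768 times with it.

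The type I interferon response was the gene list whose median interaction was the lowest of the 35 lists with at least 5 members. Of its 48 genes 40 were members, and 38 of the 40 were below 0, against 5943 of all 11439 members. The list's median was -0.56 beside -0.01 over all members. None was called higher and 5 were called lower, beside 0.962% and 1.5% of all members. The 5 were Ifi44l (-1.38), Epsti1 (-1.31), Ifi44 (-1.26), Oas2 (-1.23) and Oasl2 (-1.20). The counting interval lay below 0 for 29 of the 40 and above 0 for 2, beside 15.6% and 13.9% of all members. The 2 above 0 were Ifih1, the RNA sensor MDA5 (0.63), and Ifitm3, which blocks viral entry (0.34).

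Interferon-response genes were strongly higher with LPS in both genotypes, and the genotypes differed mainly before LPS. The median LPS log2 ratio of the 40 genes was 4.81 in wild type and 3.83 in the knockout. Without LPS, 38 of the 40 were higher in the knockout, beside 51.8% of all members, with a median log2 ratio of 0.57 between genotypes. With LPS, 16 of the 40 were higher in the knockout, beside 50.1% of all members, with a median of -0.05. Ifi44, an interferon-induced cytoplasmic protein, is an example with high counts: 194 reads in WT, 460 in KO, 11601 in WT_LPS and 11837 in KO_LPS, a 74-fold against a 31-fold increase from starting levels that differed 2.33-fold. Usp18, the enzyme that removes Isg15 from proteins, had 165, 301, 9031 and 9127 reads (-0.89, -1.17 to -0.62). Irf7, a transcription factor that amplifies interferon production, had 80, 138, 14785 and 14541 reads (-0.85, -1.25 to -0.45).

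As in Irgm2, in Oas2 and Epsti1 the LPS-treated knockout was below wild type. Oas2, which makes the 2-5A messenger that activates RNase L, had 294 reads in WT, 495 in KO, 4540 in WT_LPS and 3357 in KO_LPS (-1.23, -1.45 to -1.01). Epsti1 had 78, 126, 1931 and 1294 reads (-1.31, -1.73 to -0.89). The interval of the ubiquitin-like modifier gene Isg15 held 0 (-0.08, -0.43 to 0.27). Of a 15-gene list of interferon-inducible GTPases 5 were members, and all 5 were below 0, from -1.39 for Irgm2 to -0.03, with Irgm1 at -0.51 (-0.70 to -0.32) and Irgm2 the one called. The other 10 had fewer than 10 reads in at least 1 library, and 7 of them had more reads in KO_LPS than in WT_LPS, among them Gbp3 (1571 in WT_LPS and 2159 in KO_LPS), Gbp9 (500 and 913) and Gbp5 (810 and 990). Of the 8 interferon-response genes that were not members, 5 had more reads in KO_LPS and 3 fewer, before scaling. Total counts were larger in KO_LPS (17909549) than in WT_LPS (17045432). The gaps of Mx1 (4312 reads in WT_LPS and 4443 in KO_LPS) and Zbp1 (5211 and 5290) were smaller than that difference, so both were lower in KO_LPS after scaling. MHC class I and peptide-loading genes had a median of -0.18. None of the 22 was called, 11 had intervals below 0 and 1 above (15.6% and 13.9% of all members), and H2-T22, a nonclassical class I gene with a close copy, was lowest at -0.87.

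NF-kB subunits and feedback genes lay on the other side of 0. The 25 members had a median of 0.26, 19 were above 0, and 16 intervals were wholly above 0 and 2 below, beside 13.9% and 15.6% of all members. The single call, beside 2.47% of all members called, was Bcl2a1b, one of the genes with copies. The precursor subunit gene Nfkb2 had 1051 reads in WT, 1236 in KO, 2794 in WT_LPS and 5315 in KO_LPS, a log2 LPS ratio of 1.72 in wild type and 2.37 in the knockout (0.65, 0.52 to 0.79). The subunit gene Rel stood at 0.50 (0.35 to 0.64), and the inhibitor gene Nfkbie at 0.62 (0.17 to 1.07). Nfkbia, which encodes the main inhibitor, was nearer to 0 at 0.19 (0.09 to 0.29). None of these values reached 2-fold.

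Among cytokines, 11 of which were members, 2 were called higher and none lower (0.962% and 1.5% of all members). Beside Il1rn this was Il23a, the p19 subunit of interleukin-23, on few reads (15 in WT, 10 in KO, 67 in WT_LPS and 119 in KO_LPS; 1.37, 0.14 to 2.61). Tnf, with 1410, 1507, 18147 and 21814 reads, had a log2 LPS ratio of 3.99 in wild type against 4.12 in the knockout (0.13, 0.02 to 0.24). Osm, an interleukin-6 family cytokine, stood at 0.62 (0.22 to 1.03). Of the 8 chemokine members 2 were called higher and 0 lower, beside the same shares of all members. Of the 13 listed chemokines that were not members, 5 had more reads in KO_LPS than in WT_LPS, 2 had fewer and 6 were equal. Ccl2, a monocyte attractant, had 105 reads in WT and 48 in KO but 10661 in WT_LPS and 10753 in KO_LPS, with folds of 269 in the knockout and 126 in wild type and a difference that lay in the untreated pair (1.10, 0.61 to 1.60). Ccl6 had 21, 22, 33 and 102 reads and differed with LPS only (1.52, 0.49 to 2.55). Ccl3 (0.19) and Ccl4 (0.09) were close to 0, and Ccl5, with 28 and 23 reads without LPS, had an interval from -0.00 to 1.59.

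Several LPS genes could not enter because they had almost no reads before LPS. Of 12 chosen LPS response genes, 7 were outside the members. Il6 had 0 reads in WT and KO, 876 in WT_LPS and 4155 in KO_LPS. Il1b had 0, 0, 4130 and 11186 reads, and Il1a had 3, 3, 3705 and 8289. Csf2 had 1, 4, 68 and 406 reads, Lif had 1, 0, 290 and 1525, Csf3 had 1, 1, 14595 and 22925, and Cxcl10 had 9, 25, 2457 and 3966. All 7 had more reads in KO_LPS than in WT_LPS, and none has an interaction value. The members of the 12 besides Tnf and Ccl5 were Nos2 (0.47, -0.34 to 1.29), Ptgs2 (0.01, -0.70 to 0.71) and Acod1 (-0.32, -0.62 to -0.02), all with large LPS ratios in both genotypes.

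These 7 belong to 2181 genes that reached 10 reads in at least 1 library but not in all 4. Of them 267 reached it in both LPS libraries only and 376 in both untreated libraries only. Another 69 reached it in both knockout libraries only and 49 in both wild-type libraries only. The members therefore leave out every gene under the minimum in any library, whatever the size of its change. Genes that LPS or the genotype switched fully on or off are among those left out, and no count of calls above covers them.

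Immediate early and AP-1 genes had the highest list median, 0.33. Of 17 members 13 were above 0, 10 intervals were wholly above 0 and 3 below (13.9% and 15.6% of all members), and Nr4a2 was called higher and Egr3 lower. Fosl2, a Fos-family subunit of AP-1, had 1301 reads in WT, 681 in KO, 1561 in WT_LPS and 1403 in KO_LPS (0.74, 0.57 to 0.91), with the difference in the untreated pair. Junb, a Jun-family subunit, stood at 0.51 (0.40 to 0.61), while Jun was at -0.12. Of 17 MAP kinase phosphatases and feedback genes 2 were called higher and none lower, beside 0.962% and 1.5% of all members. The list's median was -0.04, and 8 of the 17 were above 0. Dusp2, a nuclear phosphatase of ERK and p38, had 250, 244, 660 and 1405 reads and differed with LPS only (1.08, 0.80 to 1.37). Dusp8 had 27, 12, 79 and 120 reads (1.73, 0.67 to 2.80). Dusp6, a cytoplasmic phosphatase of ERK, went the other way without reaching 2-fold (-0.67, -0.88 to -0.45).

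Upstream signalling genes held no call, which at 2.47% over all members is near the background for lists of this size. The 24 Toll-like receptor pathway members had a median of -0.12, with 8 intervals below 0 and 1 above (15.6% and 13.9% of all members). Values included Tlr13 at -0.48 (-0.66 to -0.31) and Ly96 at 0.47 (-0.11 to 1.04). Among the 17 cytokine signalling genes Stat5a stood at 0.84 (0.55 to 1.12) and Socs1, on 10 reads in KO, at 0.95 (-0.24 to 2.14). Among 22 interferon regulatory and lineage factors Klf10 was the single call. Irf8, a macrophage lineage factor, had 1754 reads in WT, 1809 in KO, 4624 in WT_LPS and 7937 in KO_LPS (0.69, 0.59 to 0.80), and Mitf had the opposite sign (-0.74, -0.91 to -0.58). The 19 regulators of cytokine mRNA stability had no call and a median of -0.04, with Arid5a, which protects Il6 mRNA, at 0.57 (0.23 to 0.90) and the endonuclease gene Zc3h12a at 0.43 (0.12 to 0.74).

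Scavenger and pattern receptors had a median of -0.50, near that of the interferon genes. Of 15 members 3 were called lower and none higher (1.5% and 0.962% of all members), and 12 intervals lay below 0 and 1 above (15.6% and 13.9% of all members). Msr1, the class A scavenger receptor, had 10 reads in WT, 40 in KO, 5012 in WT_LPS and 6350 in KO_LPS, so its value of -1.70 (-2.70 to -0.70) rested on the 10 and 40 reads of the untreated pair. Stab1 had 20, 27, 147 and 75 reads (-1.44, -2.37 to -0.52) and Clec4a3 had 99, 125, 45 and 27 (-1.11, -1.90 to -0.33). Better counted members stayed under 2-fold: Trem2, a lipid-sensing receptor, had 4253, 4250, 933 and 497 reads (-0.95, -1.12 to -0.78), equal without LPS and apart with it. Cd33, a sialic acid-binding inhibitory receptor, was called lower in the macrophage identity list with 2642, 2912, 668 and 349 reads (-1.12, -1.32 to -0.92), and Ms4a6c higher with 86, 37, 1386 and 1250 (1.03, 0.46 to 1.59). Of the 10 macrophage markers 7 had a lower CPM in KO_LPS than in WT_LPS and 3 a higher one (Adgre1, Itgam and Ptprc). The largest gap was that of the lysozyme gene Lyz2, with 51187 reads in WT_LPS and 20041 in KO_LPS, and the other 9 summed to 6595 CPM in WT_LPS and 5883 in KO_LPS. The part of this difference in the values above was not tested.

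Costimulatory molecules were called in both directions, with 3 of 13 called higher and 1 lower, beside 0.962% and 1.5% of all members. Beside Cd5 the higher genes were Cd80, a ligand of CD28 and CTLA-4 (74 reads in WT, 78 in KO, 121 in WT_LPS and 285 in KO_LPS; 1.12, 0.57 to 1.67), and Cd83, a marker of activated antigen-presenting cells (422, 543, 478 and 1347 reads; 1.09, 0.85 to 1.33). In both, KO_LPS was the library that stood apart. Havcr2, which encodes the inhibitory receptor TIM-3, was lower (424, 543, 98 and 64 reads; -1.01, -1.50 to -0.52), a call lost with DESeq2 size factors (-0.999). Cd274, the ligand PD-L1, had 43, 82, 745 and 743 reads and just missed the rule (-0.98, -1.53 to -0.42).

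Of 22 macrophage activation enzymes 3 were called lower and 1 higher, beside 1.5% and 0.962% of all members, and the median was -0.04. The lower calls were Slpi, Plau and the arginase gene Arg2 (-1.15, -2.08 to -0.23). The NADPH oxidase subunit gene Cybb was at 0.00 (-0.03 to 0.04). Adhesion genes gave 1 call each way, Pecam1 higher and Selplg, the P-selectin ligand, lower (128, 154, 115 and 59 reads; -1.27, -1.84 to -0.71). Itga4, an integrin subunit, had 47742, 42308, 24705 and 15025 reads and was lowered more in the knockout without reaching 2-fold (-0.58, -0.62 to -0.55). Among 12 chemoattractant receptors the nucleotide receptor gene P2ry2 was called higher (1.06, 0.48 to 1.64) and Cxcr3 lower (-1.15, -1.85 to -0.44).

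NRF2 targets and iron-handling genes had a median of -0.19, with 23 of 27 below 0 and 19 intervals wholly below (15.6% of all members). Slc40a1, the iron exporter ferroportin, was the one call, beside 2.47% of all members called. It had 129 reads in WT, 169 in KO, 667 in WT_LPS and 395 in KO_LPS, a 6.4-fold against a 2.81-fold increase (-1.19, -1.56 to -0.81). Hmox1, which breaks down heme, had 1478, 1258, 38723 and 18736 reads. It increased 32.4-fold in wild type and 17.9-fold in the knockout (-0.86, -0.97 to -0.74), and the LPS-treated knockout held 0.461 times the wild-type level. Slc11a1, the phagosomal metal transporter, stood at -0.83 (-1.25 to -0.42) and the cystine transporter gene Slc7a11 at -0.73 (-0.87 to -0.59). The ferritin heavy chain gene Fth1 was at -0.00. Lysosomal enzymes lay on the same side without a call, with a median of -0.20 over 29 members. Of their intervals 18 were below 0 and 3 above (15.6% and 13.9% of all members). The aspartic protease gene Ctsd stood at -0.36 (-0.43 to -0.30). The median counting error was 0.057 in the NRF2 and iron list and 0.052 in the lysosomal list, against 0.111 over protein-coding members. The all-member shares are not matched for this, and smaller errors let smaller differences exclude 0.

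Lists of growth and housekeeping genes had small medians and almost no calls. DNA replication genes had a median of 0.12 over 36 members with 27 above 0, mitosis genes 0.13 over 29 with 22 above 0, and cholesterol synthesis genes 0.18 over 24 with 18 above 0, and none was called. Rpa2, a subunit of the single-strand DNA-binding complex, was the highest of the replication genes: 1990 reads in WT, 2218 in KO, 465 in WT_LPS and 868 in KO_LPS (0.70, 0.52 to 0.89). LPS lowered most of these genes in both genotypes, as for the kinetochore histone gene Cenpa, whose log2 LPS ratio was -1.73 in wild type and -1.29 in the knockout. Cytosolic ribosomal protein genes were above 0 in 33 of 35 members with a median of 0.11. Their 2 calls, Rpl30 and Rps27a, are genes with copies, as described above. Uncalled genes of the list can have copies too: Rps18, with 4 copies, stood at 0.53 alone and at 0.18 summed with them. The counts for this list use each gene's own reads. Counting intervals lay wholly above 0 for 27 of the 35 and below 0 for 1, beside 13.9% and 15.6% of all members. These shares are not matched for depth. The median counting error of the list was 0.024, against 0.111 over protein-coding members, and smaller errors let smaller differences exclude 0.

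Double-strand break repair genes, a list fitting the reported role of Hnrnpul1, had a median of -0.02 over 33 members. The one call, beside 2.47% of all members called, was Nhej1, an end-joining factor, on few reads. It had 64 reads in WT, 25 in KO, 19 in WT_LPS and 26 in KO_LPS (1.77, 0.68 to 2.85). Xrcc5, the Ku80 subunit, stood at -0.67 (-1.24 to -0.11) and Xrcc4 at -0.63 (-0.98 to -0.28). The 36 hnRNP and SR splicing proteins had no call and a median of 0.01. Hnrnpa0, which binds AU-rich cytokine mRNAs, was the farthest from 0 among them with 12819, 9552, 6704 and 7819 reads (0.61, 0.55 to 0.67). Glycolysis (0.03), nuclear oxidative phosphorylation (-0.00) and unfolded protein response genes (0.03) had medians near 0 and no call. Of 27 apoptosis genes Bcl2a1b was the one called, beside 2.47% of all members. Bcl2l11, the death activator BIM, just missed the rule at 0.97 (0.68 to 1.27). Of 19 regulators of G protein signalling the GTPase gene Gem was the one called, as lower, beside 2.47% of all members called. It had 109, 58, 160 and 34 reads (-1.36, -2.07 to -0.66).

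**Figure D5:**
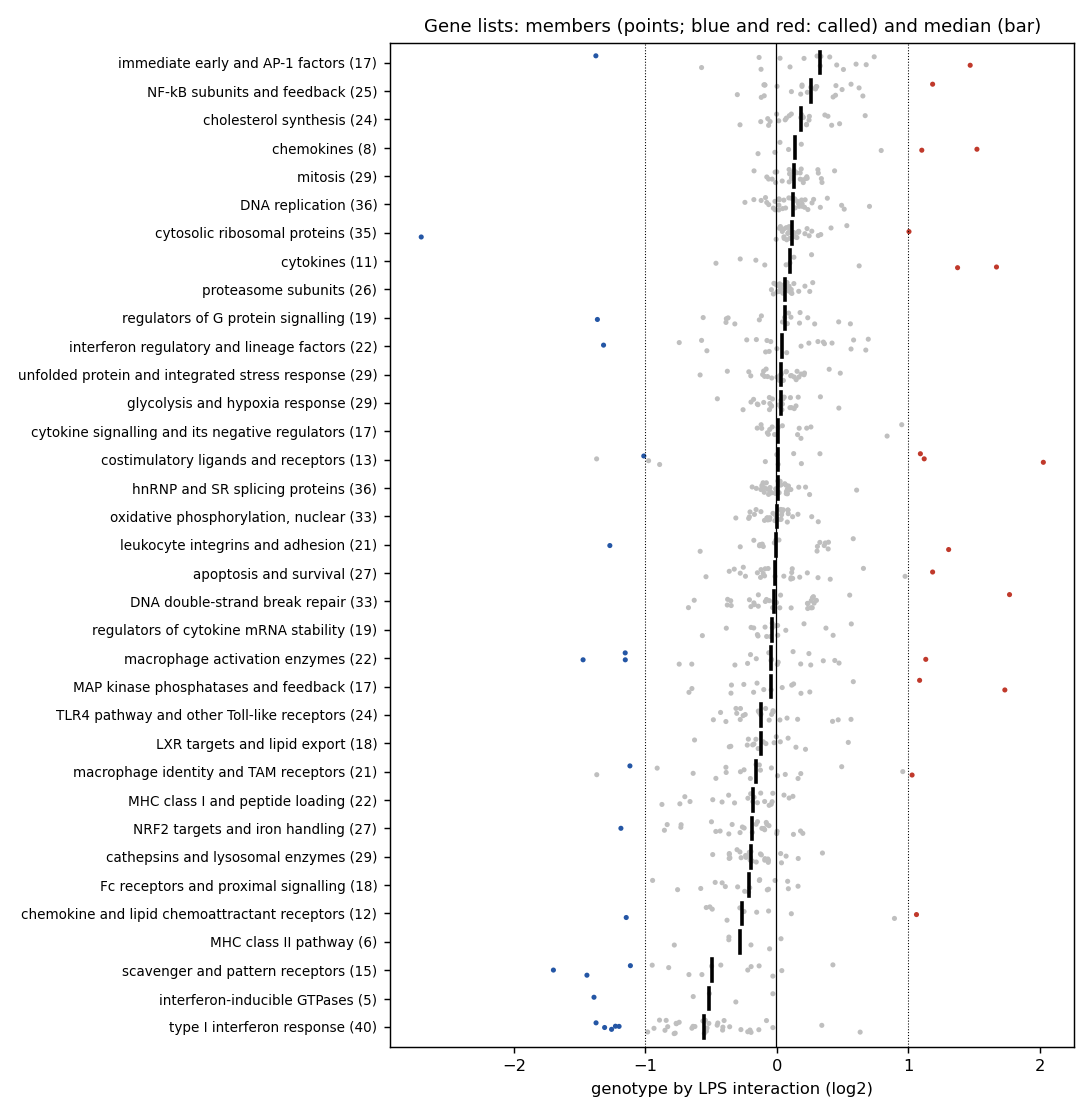
Interaction (log2, horizontal axis) of the members of each list with at least 5 members; points are genes (blue and red: called), bars are list medians and the number of members is in brackets. Medians run from -0.56 for the type I interferon response to 0.33 for immediate early and AP-1 factors, between dotted lines at 2-fold.

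Called genes were also looked at by their start regions. RefSeq windows of 300 bases (250 before and 50 after the annotated start, GRCm38.p6) within 1000 bases of the deposited gene start were matched for 7668 members. Motifs were searched as exact letters on both strands, and a match describes the letters and not a bound site. The interferon-type motif GAAANNGAAA, 2 GAAA blocks spaced by 2 bases, was in 3.52% of all 27025 promoters and 3.06% of members. It was in 13 of 31 matched interferon-list genes (41.9%) and in 64 of 638 genes called higher with LPS in both genotypes (10.0%). Among called genes without a copy it was in 4 of 73 called lower (5.48%) and in 1 of 49 called higher (2.04%). The NF-kB-type motif GGGNNTTTCC was in 1.64% of all promoters and 1.70% of members, in 6 of 20 genes of the NF-kB list (30%) and in none of the 49 or 73. The AP-1 motif TGANTCA was in 7.91% of all promoters and 4.29% of members, in 6 of the 49 (12.2%) and in 3 of the 73 (4.11%). The cyclic AMP response element TGACGTCA was in 1.78% of all promoters and 3.76% of members, in 4 of the 49 (8.16%) and in 2 of the 73 (2.74%). With so few matches these shares have wide counting error, and no share was tested. Windows of 100 bases around a match are shown for genes described above or called higher, with the match in capitals, 5′ to 3′ on the gene's strand. They lie at chr2:24336676-24336775 (plus strand, upstream of Il1rn), chr6:53287216-53287315 (plus strand, across the annotated start of Creb5) and chr7:38271329-38271428 (minus strand, across the start of Pop4, a subunit of RNase P and MRP with 200, 206, 63 and 134 reads and an interaction of 1.01, 0.49 to 1.52, and 0.991 with total-count scaling):
Il1rn, TGANTCA: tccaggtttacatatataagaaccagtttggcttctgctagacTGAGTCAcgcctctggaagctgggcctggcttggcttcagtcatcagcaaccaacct
Creb5, TGACGTCA: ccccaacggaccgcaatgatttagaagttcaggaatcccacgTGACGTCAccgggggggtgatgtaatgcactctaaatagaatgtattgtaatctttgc
Pop4, TGACGTCA: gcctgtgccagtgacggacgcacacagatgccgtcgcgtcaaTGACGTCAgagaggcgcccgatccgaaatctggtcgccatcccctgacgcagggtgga

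By type of gene, protein-coding members were called in 1.83% of cases (67 higher and 118 lower of 10113) and processed pseudogenes in 6.73% (23 higher and 15 lower of 565). The latter had a median counting error of 0.359 against 0.111 for protein-coding genes. Across the autosomes and X, the share called ran from 1.14% on chromosome 18 to 3.72% on chromosome 17. None of the 21 members on the mitochondrial chromosome was called. A nuclear ribosomal RNA gene, CT010467.1, had 12337 reads in WT, 9831 in KO, 10706 in WT_LPS and 13518 in KO_LPS, an interaction of 0.62 (0.57 to 0.68). Poly(A) selection removes most ribosomal RNA, and whether this difference bears on any gene above was not tested.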

How the data were processed

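Gene-level read counts came from the deposited tables of 4 libraries, 1 per group. Per the submitters' processing notes, the tools named are CASAVA 1.8, HISAT2 2.0.5 and featureCounts 1.5.0-p3, with the builds GRCm38 and mm10. The strand setting and the treatment of reads matching several places are not given in the sources used here. Counts were deposited as whole numbers without normalization, and the FPKM values of the authors were used only as an alternative.

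TMM factors (edgeR 4.0.16, R 4.3.3) over the 11640 genes averaging 1 CPM or more were 1.11, 1.12, 0.901 and 0.899 for WT, KO, WT_LPS and KO_LPS. The interaction, its delta-method 95% interval from 4 Poisson counts and the exact conditional (Clopper-Pearson) intervals of the component ratios were computed in Python 3.11.15 with SciPy 1.17.1. Reads carry no molecular identifiers, so they are not independent molecules. Scripts were tested on simulated data. Members and the 42 gene lists were chosen with earlier results of these data known.

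Named genes were Hnrnpul1, the 12 highest and 12 lowest called protein-coding genes with at least 30 reads per library, the leading 2 of each response pattern, up to 3 per list and 12 LPS response genes. Other list members and the examples of genes with copies were named after their values were seen. Some named genes are not reported here. Copies were found with 31-base words of GENCODE M21 transcripts. Alternatives covered scaling (including DESeq2 1.42.0 size factors), read minimum, call rule, interval, assumed spread, gene type, FPKM and summed copies, the last added after seeing the data.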

Additional observations from a re-analysis of the deposited data

Results flagged for a closer look

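Gm38357, a gene model of the TEC class with no copy, was the only member called in opposite LPS directions in the 2 genotypes. It had 33 reads in WT, 63 in KO, 54 in WT_LPS and 26 in KO_LPS. Its LPS log2 ratio was 1.02 (0.37 to 1.69) in wild type and -1.01 (-1.73 to -0.33) in the knockout, an interaction of -2.03 (-2.94 to -1.12). With 1 library per group the difference was not tested.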

How the results depend on the processing

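No paired analysis was possible because each group holds 1 library, and no replicate could be left out. Other scalings shift every interaction alike, by 0.015 (TMM over members), 0.013 (DESeq2 size factors) or -0.014 (total counts). This turns the sign of the overall median of -0.010 in the first and second case. In the same order 9, 8 and 4 calls were lost and 6, 6 and 4 gained, for totals of 279, 280 and 282. The number of calls depended on the rule. A minimum of 30 reads left 49 higher and 79 lower calls (27 with LPS higher in both genotypes, 10 with LPS lower in both), and 100 reads left 13 and 24 (10 and 3). Calls at 1.5-fold were 279 and 407 (116 and 52), and with the whole interval beyond 2-fold 6 and 20 (6 and 2). With 0 taken as 3 counts and no minimum, 35 calls had LPS lower in both. An assumed biological CV of 0.2 left 36 and 52. Protein-coding genes alone gave 67 higher calls. Deposited FPKM as log2(value + 1) gave 31 and 38; the cause was not tested. Summing copies turned Hmgn2 to 0.10 and Rps27rt to 0.0752. As reported the counts were 110 and 172 (41 and 23). Depth limits genes near 10 reads, and no interval covers variation between cultures.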

Other observations

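Fc receptors and their proximal signalling genes had no call among 18 members and a median of -0.21. Of their intervals 9 were below 0 and 1 above, beside 15.6% and 13.9% of all members. These shares are not matched for depth: the median counting error was 0.062 in the list and 0.111 over protein-coding members. Lilrb4a, an inhibitory receptor with close copies, stood at -0.76 and at -0.61 summed with them. The 6 members of the MHC class II pathway had a median of -0.28 and no call.

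Proteasome subunits were above 0 in 22 of 26 members, with a median of 0.06 and no call, and Psma6 stood at 0.25 (0.17 to 0.33). LXR targets had a median of -0.12 over 18 members and no call. Pltp, a phospholipid transfer protein, stood at -0.63 (-0.91 to -0.34) and Mylip, which degrades the LDL receptor, at 0.54 (0.22 to 0.87). The 4 complement genes lay between -0.20 and 0.15.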
